A study of Mus musculus with 40 samples.

Results

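Serpins are a family of protease inhibitors that trap their target by a change of shape: a serine protease cuts an exposed loop of the serpin and stays bound to it. The family was followed in mouse lung RNA through all platform gene symbols that start with Serpin, a clade letter from a to i and a number. This rule found 30 genes among 12393 genes with a single platform symbol, and where a gene had several probe sets the brightest one over all 40 arrays was used. No measured difference entered the rule itself, but the family was chosen with earlier results of these data known.

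Secreted serpins control clotting, fibrinolysis, complement and neutrophil proteases in plasma and tissue fluid, and several are acute phase proteins made by liver and by inflamed tissue. Serpins of clade B mostly stay inside cells, where they protect leukocytes and epithelium against their own or incoming granule proteases. A few members, such as the collagen chaperone Serpinh1, inhibit no protease. In the lung the family is best known for alpha-1-antitrypsin, whose deficiency in people leaves neutrophil elastase unopposed.

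The arrays were one-colour Affymetrix arrays of lung RNA in 8 groups of 5. AJ lungs were taken 6 h or 24 h after aspiration of an allergen in phosphate-buffered saline, or of the saline alone (PBS), and C3H lungs were taken in the same 4 combinations. Titles call the allergen OVA and descriptions call it HDM, and all descriptions name AJ while 20 titles name C3H, so the word allergen is used here and strain follows the titles. Whether the arrays of a group came from different mice is not stated in the labels, so the p-values reflect only array-to-array spread, which may be technical. Age and sex were not given in the sources used here.

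Levels are intensities in arbitrary units on a linear scale. Differences are on the scale of log2(intensity + 16), allergen minus PBS unless another direction is named, with the standard error (SE) of the fit. They understate the change of dim genes. A gene passed where limma's adjusted p, by the Benjamini-Hochberg method over 12393 genes, was below 0.05. Correlations between arrays ran from 0.875 to 0.985. The 13 measured lung epithelium markers summed to between 35387 and 52258 on all arrays, which fits the labelled tissue. In whole lung RNA, fewer cells of a type and less RNA per cell cannot be told apart.

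Of the 30 serpins, Serpina3n passed in all 4 comparisons of allergen with PBS and was higher each time. At 6 h in AJ lungs it was the 1 serpin to pass, while 19.0% of all genes tested passed in either direction and 7.03% as higher. At 24 h in AJ lungs 2 serpins rose (Serpina3n and Serpinb9) and 2 fell (Serpinf1 and Serpinb6a), beside 7.84% of all genes, 4.56% as higher and 3.28% as lower. C3H lungs at 6 h had 2 serpins higher, Serpina3n and Serpind1, beside 7.62% of all genes in either direction and 3.93% as higher. C3H lungs at 24 h had 1 serpin higher, beside 3.24% of all genes in either direction and 2.10% as higher. The 4 calls in AJ lungs at 24 h became 2 under median centring, a pseudocount of 1 or with adipose and muscle marker levels as covariates, and 2 to 4 on leaving out 1 array. Groups that did not overlap were seen for none of the 30 in AJ lungs at 6 h, 4 in AJ lungs at 24 h, 2 in C3H lungs at 6 h and 5 in C3H lungs at 24 h. The shares of all genes in the same order were 13.5%, 8.67%, 5.70% and 4.60%.

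The median difference over the 30 serpins was -0.06 in AJ lungs at 6 h, 0.11 in AJ lungs at 24 h, 0.10 in C3H lungs at 6 h and -0.05 in C3H lungs at 24 h. Over all genes the medians were -0.07, -0.0043, -0.0016 and -0.04 in the same order. The family's medians stood near those of all genes, and 5 members passed in at least 1 of the 4 comparisons.

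**Figure D1:**
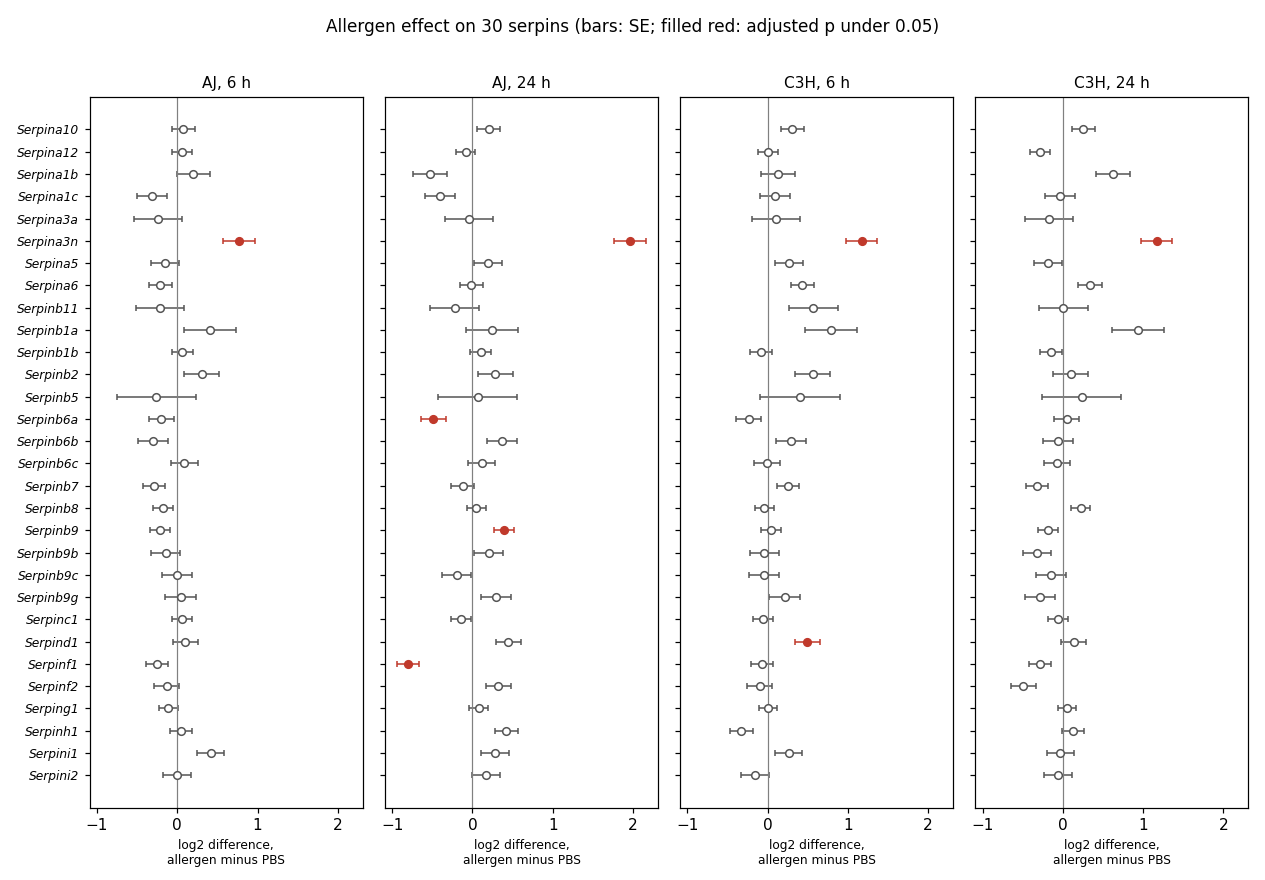
Log2 difference, allergen minus PBS, with its SE for 30 serpins (rows) in 4 comparisons of 5 against 5 arrays (panels). Filled red points passed at an adjusted p under 0.05: Serpina3n in each panel, with Serpinb6a, Serpinb9 and Serpinf1 in AJ at 24 h and Serpind1 in C3H at 6 h.

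Serpina3n, on chromosome 12, encodes a secreted acute phase serpin related to human alpha-1-antichymotrypsin that can inhibit granzyme B and neutrophil proteases. The window upstream of its start is shown because this member carried the response in both strains. It lies at chr12:104406458-104406645 on the + strand of GRCm38.p6, credited to RefSeq, and ends before the start site. Capitals mark its match to ACANNNTGT, the spaced palindrome of glucocorticoid receptor elements:
Serpina3n: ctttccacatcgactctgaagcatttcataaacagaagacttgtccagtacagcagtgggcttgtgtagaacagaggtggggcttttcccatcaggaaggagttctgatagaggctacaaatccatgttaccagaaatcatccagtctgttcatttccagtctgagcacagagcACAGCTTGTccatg
The same letters occurred on either strand in 6.85% of 32851 mouse windows of this kind, which hold 250 bases before and 50 after a start. The 26 serpins with a window had 29 windows, and 4 of these, in 4 genes, held them.

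Serpina3n intensity in AJ lungs at 24 h was 1915, 1507, 1460, 1538 and 1849 after allergen, against 528, 361, 428, 381 and 370 after PBS. All 5 allergen arrays lay above all PBS arrays. On the log2 scale the means were 10.70 ± 0.18 after allergen and 8.73 ± 0.22 after PBS (SD, n = 5 each), a difference of 1.96 ± 0.19 (SE) or 3.90-fold (limma, adjusted p = 1.8e-09). Counted from the most positive difference, it held rank 40 of 12393 genes.

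At 6 h in AJ lungs the values were 1115, 621, 1130, 848 and 938 after allergen, against 493, 728, 394, 651 and 439 after PBS. The groups overlapped, since the second allergen array lay below 2 of the PBS arrays. The difference was 0.77 ± 0.19 (SE; limma, adjusted p = 0.00334).

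C3H lungs at 6 h gave 1162, 1458, 680, 605 and 930 after allergen, against 442, 372, 397, 370 and 414 after PBS. No allergen array reached down to the PBS arrays, and the allergen arrays spread more widely. The difference was 1.17 ± 0.19 (SE; limma, adjusted p = 6.55e-05).

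At 24 h C3H lungs gave 845, 1081, 1003, 1041 and 822 after allergen, against 610, 347, 314, 349 and 526 after PBS. Again the groups did not overlap, with a difference of 1.17 ± 0.19 (SE; limma, adjusted p = 0.000188). The allergen effect on Serpina3n was larger at 24 h than at 6 h in AJ lungs, by 1.19 ± 0.28 (SE; limma, adjusted p = 0.00549). In C3H lungs the effects at both times differed by -0.0037 ± 0.28, with a 95% interval of -0.56 to 0.55.

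At 24 h the effect in C3H lungs minus that in AJ lungs was -0.79 ± 0.28 (SE, 95% interval -1.35 to -0.24), and this did not pass over all genes (limma, adjusted p = 0.197). Serpina3n belongs to a cluster of closely related Serpina3 genes, and its probe set may bind transcripts of near copies, so its values are uncertain to that extent.

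**Figure D2:**
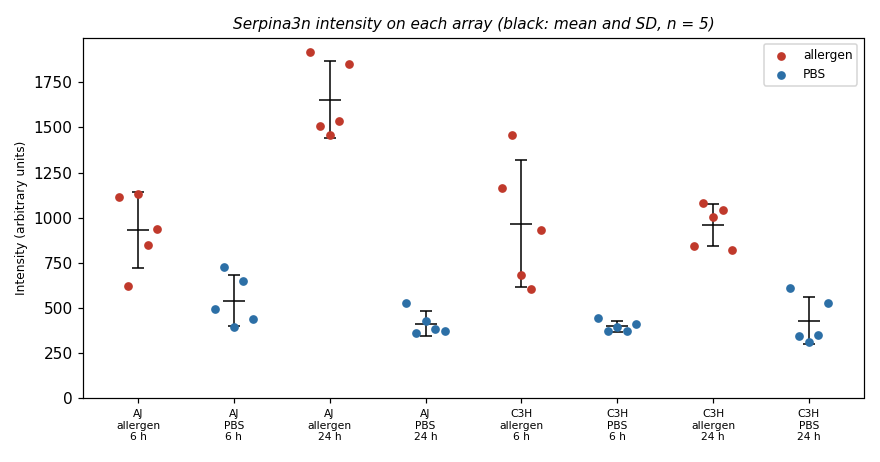
Serpina3n intensity (vertical axis, arbitrary units, from 0) on each of 40 arrays in 8 groups, with black marks for the mean and SD of 5 arrays. Allergen arrays (red) in AJ at 24 h sit between 1460 and 1915, above all PBS arrays (blue) of both strains.

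In all 4 comparisons some goblet cell, macrophage, neutrophil, T and NK cell, and B and plasma cell markers passed as higher. Of 13 T and NK cell markers, 3 passed as higher in AJ lungs at each time. In C3H lungs 1 did at 6 h and 2 at 24 h. Of 9 B and plasma cell markers, 3 passed as higher in AJ lungs at each time, and 1 fell there at 24 h. That list had 2 higher in C3H lungs at 6 h and 1 at 24 h. Over all genes 7.03% and 4.56% passed as higher in AJ lungs at 6 h and 24 h. In C3H lungs the shares were 3.93% and 2.10%. Eosinophil markers passed only in C3H lungs at 6 h, 1 of 5 as higher. Of 11 mast cell and basophil markers, 2 rose and 2 fell in AJ lungs at 6 h, beside 19.0% of all genes in either direction. In that list 1 rose in AJ lungs at 24 h, 1 rose in C3H lungs at 6 h, and none passed in C3H lungs at 24 h. Of 8 goblet cell markers, 7 passed as higher in AJ lungs at 6 h, 8 in AJ lungs at 24 h, 5 in C3H lungs at 6 h and 6 in C3H lungs at 24 h. Their sums in AJ lungs at 24 h were 6027 to 7363 after allergen and 251 to 596 after PBS, and in C3H lungs at 24 h 1797 to 5636 after allergen and 192 to 328 after PBS. Of 14 macrophage markers 10 passed as higher in AJ lungs at 24 h, with sums of 11947 to 15482 after allergen and 8297 to 10317 after PBS. The neutrophil list had 4 of 12 passing as higher there, with sums of 4741 to 9512 after allergen and 1337 to 2187 after PBS. At 6 h in AJ lungs 8 of 12 neutrophil markers passed as higher, and their sums were 9013 to 11757 after allergen and 1288 to 3366 after PBS. C3H lungs at 6 h had 5 of 12 passing as higher, with sums of 4921 to 13339 after allergen and 1800 to 3407 after PBS. C3H lungs at 24 h, where Serpina3n also rose, had 1 of 12 neutrophil markers and 8 of 14 macrophage markers passing as higher. The neutrophil sums there were 2630 to 4128 after allergen and 1433 to 1884 after PBS, and the macrophage sums 11116 to 14235 after allergen and 8803 to 10535 after PBS. The part of these cells in the Serpina3n values was not tested. In AJ lungs after allergen the median neutrophil sum was 11022 at 6 h and 5668 at 24 h. The median goblet cell sum was 6698 at 6 h and 6609 at 24 h. The median macrophage sum was 11797 at 6 h and 13473 at 24 h. On these arrays Serpina3n lay between 621 and 1130 at 6 h and between 1460 and 1915 at 24 h. In AJ lungs the allergen effect was larger at 24 h than at 6 h for 5 of 14 macrophage markers. It was smaller at 24 h for 3 of 12 neutrophil markers. Beside these stand 5.62% of all genes that passed in either direction.

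Serpinf1, on chromosome 11, encodes pigment epithelium-derived factor, a secreted serpin that inhibits no protease and restrains the growth of blood vessels. Its upstream window is shown as that of the member that fell most. It lies at chr11:75422624-75422873 on the - strand of GRCm38.p6, credited to RefSeq, and ends at the start site. None of the 6 motifs searched was found in it, so no letters are in capitals:
Serpinf1: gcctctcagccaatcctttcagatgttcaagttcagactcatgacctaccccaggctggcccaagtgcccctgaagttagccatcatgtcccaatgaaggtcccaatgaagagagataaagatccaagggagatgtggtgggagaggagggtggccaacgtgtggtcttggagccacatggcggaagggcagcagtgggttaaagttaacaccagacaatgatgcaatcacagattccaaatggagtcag
On both strands the search covered TTCNNNGAA (STAT), TTGCNNAA (C/EBP), the heat shock element, GGGANNTCC (NF-kB), TATAAA and the glucocorticoid palindrome above. These were found in 8.30%, 10.8%, 0.603%, 4.30%, 13.6% and 6.85% of all windows, in that order. Among the 29 windows of 26 serpins, 4 held the STAT letters, 6 those of C/EBP and 6 those of the TATA box. These belonged to 3, 5 and 5 serpins in the same order. None held the heat shock or NF-kB motif.

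Serpinf1 intensity in AJ lungs at 24 h was 141, 180, 179, 180 and 171 after allergen, against 281, 346, 300, 298 and 313 after PBS. Each allergen array lay below each PBS array. The means were 7.54 ± 0.14 after allergen and 8.33 ± 0.11 after PBS (log2 scale, SD, n = 5 each), and the difference was -0.80 ± 0.14 (SE; limma, adjusted p = 8.24e-05).

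Some markers of several other cell types were also lower on these allergen arrays. The adipose list had 2 of 8 markers passing as lower, with sums of 796 to 3893 after allergen and 2655 to 10852 after PBS. The cardiac and skeletal muscle list had 4 of 16 passing as lower, with sums of 2683 to 8606 after allergen and 7278 to 15602 after PBS. Further markers passing as lower were 3 of 12 of fibroblast and mesothelium, 4 of 13 of lung epithelium and 3 of 9 of liver. Over all genes 3.28% passed as lower and 4.56% as higher in this comparison. In the fibroblast and mesothelium list 1 marker passed as higher, and its median sum was 7694 after allergen and 7381 after PBS. The fibroblast and mesothelium sums were 7249 to 8306 after allergen and 6676 to 8446 after PBS, and the lung epithelium sums 36950 to 51249 after allergen and 42468 to 50627 after PBS. The liver sums were 132 to 176 after allergen and 173 to 750 after PBS. The part of these 3 lists in the Serpinf1 values was not tested. With the mean log2 levels of the adipose and muscle lists as covariates, an alternative added after seeing the data, the Serpinf1 difference was -0.46 and still passed (limma, adjusted p = 0.0122).

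In the other comparisons Serpinf1 did not pass. Its differences were -0.25 ± 0.14 in AJ lungs at 6 h, -0.07 ± 0.14 in C3H lungs at 6 h and -0.28 ± 0.14 in C3H lungs at 24 h (SE). A second, dimmer Serpinf1 probe set gave -0.87 ± 0.35 in AJ lungs at 24 h, in the same direction but without passing (limma, adjusted p = 0.158). In C3H lungs at 24 h that second set gave -0.73 ± 0.35 (SE; limma, adjusted p = 0.281), a larger fall than the brightest set gave there. For the brightest set the difference of the effect between strains at 24 h, C3H minus AJ, was 0.52 ± 0.19 (SE; limma, adjusted p = 0.245). The second set had similar falls in both strains at that time.

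Among clade B serpins, Serpinb9 is the cytosolic inhibitor of granzyme B that shields lymphocytes and antigen-presenting cells. Its intensity in AJ lungs at 24 h was 616, 523, 482, 615 and 586 after allergen, against 454, 468, 369, 416 and 424 after PBS. The groups did not overlap, although the lowest allergen array was close to the highest PBS array. The difference of 0.39 ± 0.12 (SE) passed narrowly (limma, adjusted p = 0.0452). It no longer passed when any of 8 of the 10 arrays was left out, all but allergen replicate 3 and PBS replicate 2, with adjusted p up to 0.133. With the adipose and muscle covariates it was 0.23 (adjusted p = 0.482).

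At 6 h in AJ lungs Serpinb9 stood at 493, 522, 452, 439 and 353 after allergen, against 574, 505, 513, 561 and 469 after PBS. The groups overlapped, and the difference was -0.22 ± 0.12 (SE; adjusted p = 0.267). The change of effect, 24 h minus 6 h, was 0.61 ± 0.18 (SE; limma, adjusted p = 0.0323). In C3H lungs the differences were 0.04 ± 0.12 at 6 h and -0.19 ± 0.12 at 24 h (SE), and neither passed.

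The cytosolic cathepsin G inhibitor Serpinb6a had intensities of 699, 517, 381, 477 and 516 in AJ lungs at 24 h after allergen, against 789, 742, 549, 698 and 866 after PBS. The highest allergen array lay above the 2 lowest PBS arrays. Its difference of -0.49 ± 0.16 (SE) passed narrowly (limma, adjusted p = 0.0449). It was lost on leaving out any of 8 of the 10 arrays, all but allergen replicate 1 and PBS replicate 3, with adjusted p up to 0.173. Of 9 other alternatives 4 also ended the call, with an adjusted p of up to 0.229, reached with the adipose and muscle covariates. The other differences were -0.20 ± 0.16 in AJ lungs at 6 h, -0.24 ± 0.16 in C3H lungs at 6 h and 0.05 ± 0.16 in C3H lungs at 24 h (SE), and none passed.

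Serpinb1a encodes the neutrophil elastase inhibitor of leukocyte cytosol. Its brightest probe set read, in C3H lungs at 24 h, 170, 125, 182, 94.4 and 102 after allergen, against 56.6, 82.1, 39.5, 83.7 and 51.8 after PBS. The groups did not overlap, but the difference of 0.93 ± 0.32 (SE) did not pass (limma, adjusted p = 0.105). The other Serpinb1a probe set gave 0.05 ± 0.13 there, and 0.52 ± 0.13 in C3H lungs at 6 h (SE; limma over all probe sets, adjusted p = 0.0102) and 0.38 ± 0.13 in AJ lungs at 6 h (adjusted p = 0.0374). At 6 h the brightest set gave 0.79 ± 0.32 in C3H lungs and 0.40 ± 0.32 in AJ lungs (SE), so the 2 probe sets had the same sign at that time and disagreed in size at 24 h in C3H lungs.

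Serpinb2, the urokinase inhibitor of activated macrophages and epithelium, was dim, with 17 of 40 arrays below 16. In C3H lungs at 6 h it read 20.1, 20.7, 20.5, 19.4 and 27.7 after allergen, against 16.4, 8.71, 8.17, 6.96 and 7.95 after PBS. The groups did not overlap, and the difference of 0.56 ± 0.22 (SE) did not pass (limma, adjusted p = 0.121).

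The other clade B genes passed in none of the 4 allergen comparisons. Serpinb6b ranged from 219 to 746 over all arrays and Serpinb9b from 49.7 to 146. Serpinb11 ranged from 29.1 to 175, Serpinb8 from 19.9 to 47.9 and Serpinb7 from 16.5 to 54.4. Serpinb9g was below 16 on 9 arrays, Serpinb5 (maspin, an epithelial serpin) on 18, Serpinb6c on 32, Serpinb9c on 35 and Serpinb1b on all 40. Members of the Serpinb6 and Serpinb9 groups are close relatives in neighbouring copies on chromosome 13, so their probe sets may not separate them fully.

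Serpins of the clotting and complement systems made up the next group. Serping1, the C1 inhibitor that restrains complement and contact activation, ran from 1140 to 1966 on all arrays. Its differences were -0.11, 0.08, 0.0046 and 0.05 in AJ lungs at 6 h, AJ lungs at 24 h, C3H lungs at 6 h and C3H lungs at 24 h, each with an SE of 0.12. The 95% interval of the difference ran from -0.16 to 0.31 in AJ lungs at 24 h.

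Serpind1, heparin cofactor II, inhibits thrombin at the vessel wall. In C3H lungs at 6 h it read 41.7, 51.1, 42.5, 55.3 and 43.7 after allergen, against 39.9, 24.1, 26, 47.9 and 12.9 after PBS. A PBS array lay within the allergen range, and another lay far below the rest. The difference was 0.49 ± 0.15 (SE; limma, adjusted p = 0.0397), and it was 0.34 without PBS replicate 5 (adjusted p = 0.162). It was lost on leaving out any of 7 of the 10 arrays, all but allergen replicate 3 and PBS replicates 1 and 4. It was 0.25 with a pseudocount of 64 and 0.74 with a pseudocount of 1.

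At 24 h in AJ lungs Serpind1 read 62.0, 74.3, 56.4, 50.6 and 55.7 after allergen, against 36.9, 27.5, 43.0, 49.4 and 42.0 after PBS. These groups did not overlap, and the difference of 0.45 ± 0.15 (SE) did not pass (limma, adjusted p = 0.0685). Differences in AJ lungs at 6 h and C3H lungs at 24 h were 0.10 ± 0.15 and 0.13 ± 0.15 (SE).

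Serpinf2 encodes alpha-2-antiplasmin, the main brake on plasmin. In C3H lungs at 24 h it read 41.4, 28.5, 37.2, 52.7 and 50.4 after allergen, against 59.2, 63.0, 65.2, 64.7 and 71.2 after PBS. All allergen arrays were below all PBS arrays, and the difference of -0.49 ± 0.16 (SE) did not pass (limma, adjusted p = 0.0798). The difference in AJ lungs at 24 h had the opposite sign, 0.32 ± 0.16 (SE; adjusted p = 0.26). The effect in C3H lungs minus that in AJ lungs was -0.82 ± 0.22 (SE; limma, adjusted p = 0.0906).

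Serpinc1, antithrombin, ran from 14.8 to 41.5 and its 4 allergen differences lay between -0.14 and 0.06. Serpina10, the protein Z-dependent inhibitor of factor Xa, ran from 48.2 to 115 and Serpina5, the protein C inhibitor, was below 16 on 37 arrays. None of the 3 passed in an allergen comparison.

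**Figure D3:**
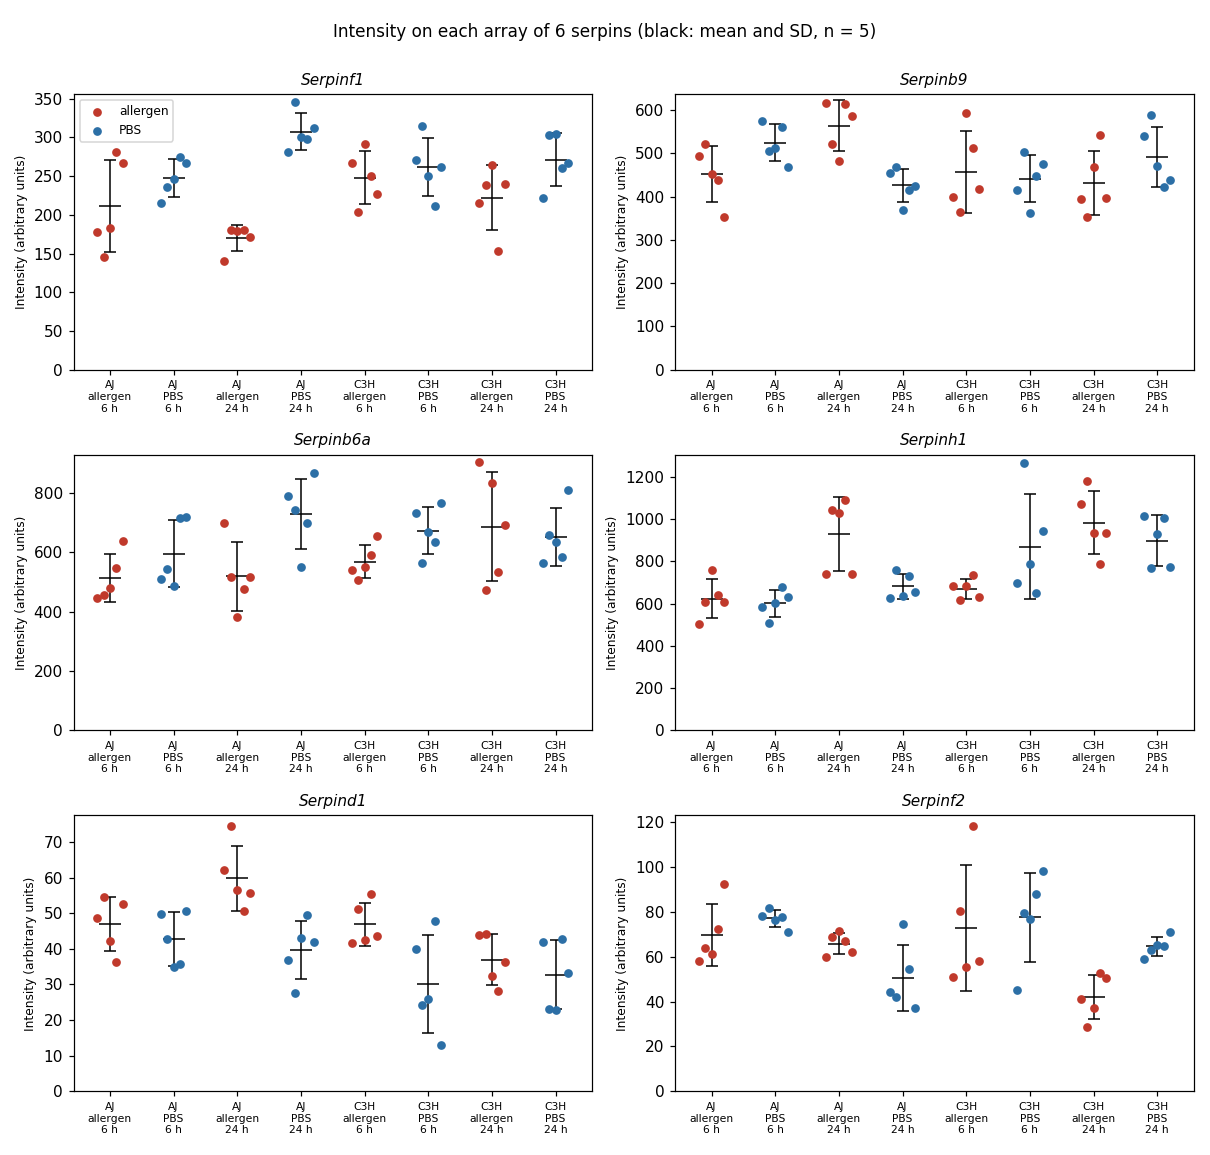
Intensity (vertical axes, arbitrary units, from 0) of 6 serpins on 40 arrays in 8 groups, with black marks for the mean and SD of 5 arrays. In AJ at 24 h the allergen arrays (red) of Serpinf1 (141 to 180) lie below the PBS arrays (blue, 281 to 346), while those of Serpinb9 and Serpind1 lie above.

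Serpinh1 encodes HSP47, a chaperone of the endoplasmic reticulum that folds procollagen. It read 740, 1041, 1030, 1091 and 738 in AJ lungs at 24 h after allergen, against 628, 761, 634, 728 and 654 after PBS. After allergen 3 readings were above 1000, and the other 2 lay within the PBS range. The difference of 0.42 ± 0.14 (SE) did not pass (limma, adjusted p = 0.0595), and a second probe set gave 0.59 ± 0.21 (adjusted p = 0.104). At 6 h the differences were 0.05 ± 0.14 in AJ lungs and -0.33 ± 0.14 in C3H lungs (SE). The second probe set gave 0.06 ± 0.21 in C3H lungs at 6 h and -0.09 ± 0.21 at 24 h, where the brightest gave 0.13 ± 0.14 (SE), so their signs differed in C3H lungs at both times and none of the 4 passed.

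In PBS lungs at 6 h Serpinh1 was the 1 serpin of 30 that differed between strains, beside 4.45% of all genes. C3H lungs read 698, 1266, 786, 648 and 944, against 582, 508, 605, 680 and 630 in AJ lungs. The highest C3H array was C3H replicate 2, and the groups overlapped. The difference, C3H minus AJ, was 0.48 ± 0.14 (SE; limma, adjusted p = 0.0382). It was 0.34 without that array (adjusted p = 0.188), and was lost on leaving out any of 7 of the 10 arrays, all but AJ replicate 4 and C3H replicates 1 and 4. In PBS lungs at 24 h it read 1014, 769, 927, 1002 and 772 in C3H lungs, against 628, 761, 634, 728 and 654 in AJ lungs. Those groups did not overlap, and the difference of 0.38 ± 0.14 (SE) did not pass (adjusted p = 0.211). No serpin passed between strains in PBS lungs at 24 h by limma, beside 1.93% of all genes, and 3 of 30 had an unadjusted p under 0.05, beside 10.9% of all genes.

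Alpha-1-antitrypsin, the main plasma inhibitor of neutrophil elastase, is encoded by several near copies in the mouse. Serpina1c ran from 32.1 to 142 and passed in no comparison. Serpina1b was below 16 on 36 of 40 arrays. In C3H lungs at 24 h it read 37.4, 15.1, 7.82, 3.17 and 2.67 after allergen, against 1.48, 1.49, 2.18, 1.24 and 1.22 after PBS. The groups did not overlap, and the difference of 0.62 ± 0.21 (SE) did not pass (limma, adjusted p = 0.097).

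Serpina1b in AJ lungs at 24 h read 3.59, 5.15, 5.44, 2.11 and 1.55 after allergen, against 5.24, 36.2, 3.72, 5.63 and 20.8 after PBS. Both high PBS arrays were the 2 with the largest sums of 9 liver markers, 750 and 566, in a group where the sums were 410, 750, 173, 178 and 566 in replicate order. In C3H lungs after allergen at 24 h the liver sums were 593, 169, 332, 130 and 140 in replicate order, and the array with the largest sum also had the highest Serpina1b. Of the 9 liver markers 3 passed as lower after allergen in AJ lungs at 24 h, beside 3.28% of all genes. Their sums were 132 to 176 after allergen and 173 to 750 after PBS. The part of liver RNA in the Serpina1b values was not tested. The Serpina1 copies also share most of their sequence, so the signal cannot be assigned to 1 copy.

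Serpina6, the corticosteroid-binding globulin, read 36.4, 37.4, 33.4, 49.4 and 27.7 in C3H lungs at 6 h after allergen, against 7.84, 18.3, 31.1, 34.6 and 29.1 after PBS. The groups overlapped, and the difference of 0.43 ± 0.15 (SE) did not pass (limma, adjusted p = 0.0653). In AJ lungs at 6 h it was -0.21 ± 0.15 (SE). Serpina12 (vaspin) was below 16 on 39 arrays and Serpina3a on 22. Serpini1 (neuroserpin, an inhibitor of tissue plasminogen activator) was below 16 on 20 arrays, and its difference in AJ lungs at 6 h was 0.42 ± 0.17 (SE; adjusted p = 0.0846). Serpini2 ran from 17.4 to 51.1.

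The allergen effect was compared between strains for all members. By limma no serpin passed at 6 h, beside 2.15% of all genes, and 3 of 30 had an unadjusted p under 0.05, beside 13.8% of all genes. At 24 h again none passed, beside 0.460% of all genes, and 8 of 30 had an unadjusted p under 0.05, beside 12.6% of all genes. The largest of these, Serpina1b, was 1.14 ± 0.30 (C3H minus AJ, SE; adjusted p = 0.0699).

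Between times, 2 of 30 serpins had a larger effect at 24 h than at 6 h in AJ lungs, Serpina3n and Serpinb9, beside 5.62% of all genes. In C3H lungs none passed, beside 0.880% of all genes, and 2 of 30 had an unadjusted p under 0.05, beside 14.1% of all genes (limma). Within PBS lungs of AJ, 24 h against 6 h, 1 serpin passed, beside 5.37% of all genes. This was Serpinf2, which read 44.4, 42.0, 74.5, 54.7 and 37.1 at 24 h, against 78.2, 81.6, 76.6, 77.9 and 71.3 at 6 h. The 24 h array of replicate 3 lay within the 6 h range, and the difference of -0.51 ± 0.16 (SE; limma, adjusted p = 0.0483) was lost on leaving out any of 9 of the 10 arrays, all but that one. In PBS lungs of C3H none passed, beside 3.21% of all genes, and 2 of 30 had an unadjusted p under 0.05, beside 16.2% of all genes (limma).

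Some serpins varied together among arrays of the same group. Deviations from the group mean on the log2 scale were correlated over 40 arrays for all 435 pairs, with permutation within groups. By Pearson's r 9 pairs had an adjusted p under 0.05. The share of such pairs among all genes was not computed, so this count is not set against a background. The strongest was Serpinb5 with Serpinb11, both on chromosome 1, with r = 0.84 and rho = 0.82. Both had a permutation p of 1e-05, the smallest that these permutations can give, and an adjusted p of 0.0043. For this pair r was 0.81 without the 2 arrays farthest from the Serpinb11 median.

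Serpinb2, on the same chromosome, followed Serpinb5 with r = 0.64 (permutation p = 1e-04, adjusted p = 0.014) and rho = 0.56 (permutation p = 0.00045, adjusted p = 0.038). Without the 2 arrays farthest from the Serpinb2 median r was 0.55. Serpina10 moved against Serpinb5, with r = -0.68 (permutation p = 2e-05, adjusted p = 0.0043) and rho = -0.69 (permutation p = 3e-05, adjusted p = 0.0065). Here r was -0.62 without the 2 arrays farthest from the Serpina10 median. Serpinb5 itself ran from 4.57 to 127 and none of its allergen differences passed. The points share array-wide scaling, and 18 of the 40 Serpinb5 values were below 16. Only the brightest of 3 Serpinb5 probe sets entered these correlations. The dimmer sets, with maxima of 33.7 and 37.2, were not used.

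**Figure D4:**
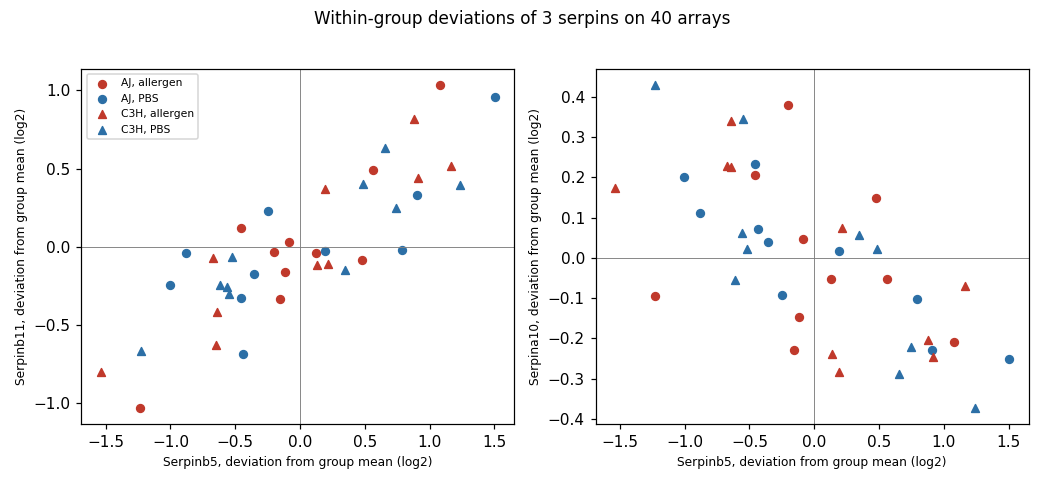
Deviation from the group mean (log2 scale) of Serpinb11 (left) and Serpina10 (right) against Serpinb5 on 40 arrays, coloured by treatment and shaped by strain. Serpinb11 follows Serpinb5 with r = 0.84 and Serpina10 runs against it with r = -0.68.

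The proteases that serpins act on were read from a list of 39 genes. Of these, 10 rose and 2 fell in AJ lungs at 6 h, led by Gzmb (granzyme B, a target of Serpinb9, 2.18 ± 0.28), the neutrophil collagenase Mmp8 (2.08 ± 0.30), the epithelial protease Prss8 (-1.17 ± 0.16) and the clotting factor F10 (0.87 ± 0.14, SE). At 24 h in AJ lungs 9 rose and 1 fell, led by F10 (1.37 ± 0.14), F7 (0.84 ± 0.12), the plasminogen activator Plat (0.69 ± 0.14) and the cathepsin Ctsh (0.63 ± 0.12, SE). In C3H lungs 4 rose at 6 h, namely Mmp8 (1.09 ± 0.30), F10 (0.86 ± 0.14), tissue factor F3 (0.79 ± 0.17) and Gzma (0.73 ± 0.19, SE). At 24 h 6 rose in C3H lungs, led by F10 (0.91 ± 0.14), Ctss (0.79 ± 0.14), Gzma (0.71 ± 0.19) and C1ra (0.64 ± 0.11, SE). List medians were 0.13, 0.14, 0.18 and 0.02 in AJ lungs at 6 h and 24 h and C3H lungs at 6 h and 24 h, beside the medians of all genes given above. Over all genes 19.0%, 7.84%, 7.62% and 3.24% passed in either direction, in the same order. F10, a target of antithrombin and of Serpina10, passed in all 4, whereas neither of those serpins passed in any.

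Protease inhibitors of other families were measured for 20 of 25 listed genes. Timp1, an inhibitor of matrix metalloproteases, rose in all 4 comparisons, by 1.78 ± 0.20 in AJ lungs at 6 h, 2.98 ± 0.20 in AJ lungs at 24 h, 1.43 ± 0.20 in C3H lungs at 6 h and 1.55 ± 0.20 in C3H lungs at 24 h (SE). Reck, a membrane inhibitor of the same proteases, fell in all 4, with differences between -0.79 and -0.46. Counts in the same order of comparisons were 3 higher and 1 lower, 3 and 5, 2 and 1, and 1 and 1. Beside these stand 19.0%, 7.84%, 7.62% and 3.24% of all genes, in either direction. Tfpi2, a Kunitz inhibitor, rose by 1.76 ± 0.16 in AJ lungs at 6 h, 1.31 ± 0.16 in AJ lungs at 24 h and 0.82 ± 0.16 in C3H lungs at 6 h (SE). The elastase inhibitor Slpi rose in AJ lungs at 6 h by 1.26 ± 0.40, and at 24 h Cst7 (1.49 ± 0.26) rose and Wfdc1 (-0.71 ± 0.17) fell there (SE).

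Cofactors, receptors and clients of serpins (17 genes) gave 3 higher and 2 lower in AJ lungs at 6 h and 2 and 1 at 24 h. In C3H lungs the counts were 1 and 0 at 6 h, and none passed at 24 h. The shares of all genes in that order, in either direction, were 19.0%, 7.84%, 7.62% and 3.24%. The heparan sulfate proteoglycan Sdc4 rose at 6 h by 1.47 ± 0.21 in AJ lungs and 1.30 ± 0.21 in C3H lungs. In AJ lungs at 6 h the urokinase receptor Plaur rose by 0.98 ± 0.18, while Thbd and Kdr were lower, at -0.63 ± 0.12 and -0.63 ± 0.21 (SE). The collagens Col5a2 (0.99 ± 0.12) and Col3a1 (0.54 ± 0.11), clients of Serpinh1, rose in AJ lungs at 24 h, and Sdc1 fell (-0.34 ± 0.10, SE).

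Serpinh1 was also set beside 10 heat shock genes, because it is a heat shock protein by name. Of these 10, 8 fell in AJ lungs at 6 h, beside 19.0% of all genes that passed in either direction. Among the 8 were Hspa1b (-2.95 ± 0.23), Hspa1a (-2.33 ± 0.25), Hsph1 (-1.63 ± 0.18) and Hspe1 (-0.84 ± 0.20, SE). The Serpinh1 difference there was 0.05 ± 0.14 (95% interval -0.24 to 0.33). The sums of the 10 genes were 7333 to 8601 after allergen and 11951 to 13972 after PBS in AJ lungs at 6 h, against 7077 to 8074 in PBS lungs of AJ at 24 h. At 24 h Hspa1b rose in AJ lungs (0.74 ± 0.23), and Hspa1b (0.90 ± 0.23) and Hspe1 (0.81 ± 0.20) rose in C3H lungs. In C3H lungs at 6 h Hspa1a fell (-0.90 ± 0.25, SE).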

How the data were processed

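Each deposited value is a linear intensity of 1 probe set on 1 array, computed by the authors with software not given in the sources used here. Means after trimming 2 percent at each end lay between 150.036 and 150.046, while array medians ran from 63.7 to 81.3. Of 22690 probe sets, 20380 had 1 platform symbol, 691 several, 1555 none and 64 were controls; only the first were used, and the 30 serpin genes had 39 probe sets. Intensities became log2(intensity + 16), and 13.6% of values lay below 16. limma 3.58.1 in R 4.3.3 fitted 8 group means to 40 arrays, with 12 contrasts, two-sided tests and Benjamini-Hochberg adjustment over 12393 genes; the fit was tested on simulated data. Groups came from the titles. The serpins and gene lists were chosen with earlier results of these data known. Every serpin is named, with values for those that passed, and up to 4 passing genes per list. Array number limits precision. Alternatives were other scalings, pseudocounts, probe-set rules, covariates, a dim-gene filter, a replicate block, separate fits and leaving out each array.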

Additional observations from a re-analysis of the deposited data

Results flagged for a closer look

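In 104 groups of 5 arrays, 13 named serpins in 8 groups each, 5 held an array far from the other 4, about what chance gives at 1 in 20 groups. On the log2 scale, Serpina1b was 5.11 on AJ allergen 6 h replicate 1, where the others lay between 4.22 and 4.38. It was 4.18 on C3H PBS 24 h replicate 3, against 4.11 to 4.13 on the others, which are intensities of about background. Serpinb2 was 5.45 on C3H allergen 6 h replicate 5 (others 5.15 to 5.20) and 5.02 on C3H PBS 6 h replicate 1 (others 4.52 to 4.63). Serpinf1 was 7.29 on AJ allergen 24 h replicate 1, below the others at 7.55 to 7.62. That array had the lowest adipose sum of its group, 796, and the highest cardiac and skeletal muscle sum, 8606. The part of either list in this value was not tested.

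The allergen effect differed between times in AJ lungs for 2 serpins. For Serpina3n it was larger at 24 h than at 6 h by 1.19 (limma, adjusted p = 0.00549), and no alternative run here ended that call. For Serpinb9 the change of effect was 0.61 (limma, adjusted p = 0.0323), with opposite signs at 24 h (0.39) and 6 h (-0.22). That call was lost on leaving out any of 8 of 20 arrays, namely AJ allergen 24 h replicates 1, 4 and 5, AJ allergen 6 h replicates 4 and 5, AJ PBS 24 h replicate 3 and AJ PBS 6 h replicates 1 and 4, with adjusted p up to 0.0768.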

How the results depend on the processing

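None of the serpin differences that passed changed sign under any alternative, and Serpina3n (all 4 comparisons) and Serpinf1 (AJ lungs at 24 h) passed under all of them. AJ lungs at 6 h gave 2 passing serpins instead of 1 under quantile normalization, median centring and the adipose and muscle covariates, the last added after seeing the data. AJ lungs at 24 h gave 2 instead of 4 under median centring, a pseudocount of 1 and the covariates, and 5 with a pseudocount of 64, without the 25% dimmest genes and with the mean of all probe sets. C3H lungs at 6 h gave 1 instead of 2 under quantile normalization, median centring and a pseudocount of 64. C3H lungs at 24 h gave 2 instead of 1 under a pseudocount of 1 and in a fit on only the groups compared. A pseudocount of 1 gave 1 call instead of 0 for the strain difference of the effect at 24 h and for C3H against AJ in PBS lungs at 24 h. The time difference in AJ lungs kept 1 of 2 calls under median centring and the covariates. C3H against AJ in PBS lungs at 6 h gave 0 under median centring, the mean of all probe sets and the separate fit, and 2 without the 25% dimmest genes and with the covariates. AJ PBS lungs at 24 h against 6 h gave 0 with a pseudocount of 1 or 64, the separate fit and the covariates. The causes were not tested.

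Leaving out 1 array gave 1 to 1 calls in AJ lungs at 6 h, 2 to 4 at 24 h, and 1 to 3 in C3H lungs at either time. It gave 0 to 1 and 0 to 3 for the strain differences at 6 h and 24 h, 1 to 3 and 0 to 0 for the time differences in AJ and C3H, 0 to 3 and 0 to 2 for C3H against AJ in PBS lungs at 6 h and 24 h, and 0 to 1 and 0 to 0 for PBS lungs over time in AJ and C3H. Without C3H allergen 24 h replicate 4, 3 serpins passed in C3H lungs at 24 h. Across all genes, 36.9% of calls in AJ lungs at 6 h were higher, against 48.9% under median centring. The shares were 64.7% and 79.3% in C3H lungs at 24 h, and shifts of over 10 points under median centring were also seen in the strain differences at 6 h (53.2% and 33.3%) and 24 h (49.1% and 62.8%), the time differences in AJ (62.7% and 51.5%) and C3H (49.5% and 60.0%), and AJ PBS lungs over time (53.9% and 40.4%).

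The deviations of same-numbered arrays from their group means had correlations of -0.17 to 0.26 in AJ lungs at 6 h, 0.01 to 0.22 in AJ lungs at 24 h, -0.23 to 0.04 in C3H lungs at 6 h and -0.20 to 0.07 in C3H lungs at 24 h. Each of the 5 allergen and 5 PBS arrays was matched in turn to its best partner in the other treatment. The own number was the best match 4 times in AJ lungs at 6 h, 2 times in AJ lungs at 24 h and never in C3H lungs. In no comparison were all pairs above 0.1, so the numbers were not taken to pair the samples. With the number as a replicate block, 1, 3, 3 and 1 serpins passed in AJ lungs at 6 h and 24 h and C3H lungs at 6 h and 24 h, and Serpinb9 in AJ lungs at 24 h had an adjusted p of 0.0525.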
